A study of Mus musculus with 24 samples.

Results

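The autosomal genes of brain vessels were compared between female (XX) and male (XY) APP/PS1 mice. All 12 APP/PS1 libraries out of the 24 of the series were used, 6 from females and 6 from males, and the sex and genotype labels chose them. Of the 13738 genes with values, 13274 lay on the 19 autosomes and were counted here. The mice carried the APP/PS1 transgenes (genotype label APP/PS+), were 9 to 11 months old, and no treatment is named in their labels. Neither the promoter of the transgenes nor the hour of dissection nor the oestrous stage is given in the sources used here. WT mice of the same ages, 6 females and 6 males, supplied the same contrast without the transgenes. Each library held the vessels of 1 mouse, pulled down on beads that bind CD31, an endothelial surface protein, and poly(A) RNA was sequenced in bulk. Females and males differ in sex chromosomes and in gonadal hormones together, so these cannot be told apart.

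Brain vessels consist of endothelial cells that form the blood-brain barrier, wrapped by pericytes or smooth muscle cells and by the endfeet of astrocytes. Endothelial cells present peptides to T cells on major histocompatibility complex (MHC) class I molecules, and interferons switch on this machinery together with antiviral genes. Sex steroids act through receptors that are transcription factors, and glucocorticoids, heat shock factor and the unfolded protein response each switch on stress genes of their own.

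Levels are CPM, the reads of a gene per 1000000 reads of its library, and differences are female minus male on the log2(CPM + 1) scale. This scale understates changes of low genes. Library totals, estimated from the step of the deposited values, ranged from 56.24 M to 75.93 M reads in APP, and a count of 0 allows up to 3 reads, or 0.0395 to 0.0533 CPM. Intervals of this kind cover counting error only. Xist, the RNA that silences an X chromosome, was at 328 to 453 CPM in the APP females and at 0.123 to 0.784 CPM in the males. Ddx3y, a Y-linked gene, was at 168 to 210 CPM in the males and at 0.015 to 0.279 CPM in the females, so both checks matched the sex labels. The vessel label was met by Pecam1, which encodes CD31, at 1230 to 1830 CPM, and by Cldn5, the claudin of the barrier, at 1440 to 2560 CPM in every APP library.

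Library names came in 2 styles, a letter with at most 2 digits (short) or a letter with 4 digits (long). Each sex had 4 short-named and 2 long-named APP libraries, so the style entered the model as a block. In WT all males had short and all females long names, so there sex and name style cannot be told apart. Markers of neural cells stood low in short-named males and for the most part high in short-named females. The mean centred log2 value over the neuron, astrocyte and oligodendrocyte lists was -1 to -0.9 in those males and 0.45 to 1.22 in those females. The long-named males had 0.52 and -0.19 and the long-named females 0.31 and -0.31, so those sets overlapped. Male 3 stood low in microglial markers, with a sum of 2150 CPM over 14 homeostatic genes against 5520 to 9380 in the other males. Results that moved with male 3 or with the short-named libraries are marked as such below.

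Of the 13274 autosomal genes, 571 (4.3%) were called, that is, had a Benjamini-Hochberg adjusted p under 0.05 in limma, with 430 (3.24%) higher and 141 (1.06%) lower in females. Unadjusted p-values under 0.05 numbered 3083 (23.2%). Genes called higher had a median difference of 0.62 and a median mean level of 15.1 CPM, and those called lower had -0.41 and 83.7 CPM. The median over all autosomal genes was 0.05. Trimmed-mean (TMM) scaling gave 340 higher and 207 lower, so the share of higher calls was 75.3% as scaled by the authors and 62.2% with that scaling. All 6 female libraries were above all 6 male ones for 178 genes (1.34%) and below them for 61 (0.46%), together 1.8%. Among the calls this held for 120 of 430 (27.9%) and 41 of 141 (29.1%). Calls lay on every autosome, from 2.11% of the genes tested on chromosome 14 to 5.57% on chromosome 11.

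The number of calls depended on single libraries. It was 43 without male 4, 53 without female 3, 55 without male 2, 60 without female 5, 83 without female 1, 113 without female 6, 183 without male 1, 229 without female 4 and 276 without male 6. It was 1373 without male 3 and 988 without male 5. Without female 2 it was 655. With any 1 library left out, 36 genes were called in every case, 25 of them higher and 11 lower in females, and genes named below for that property were chosen after their values were seen.

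**Figure D1:**
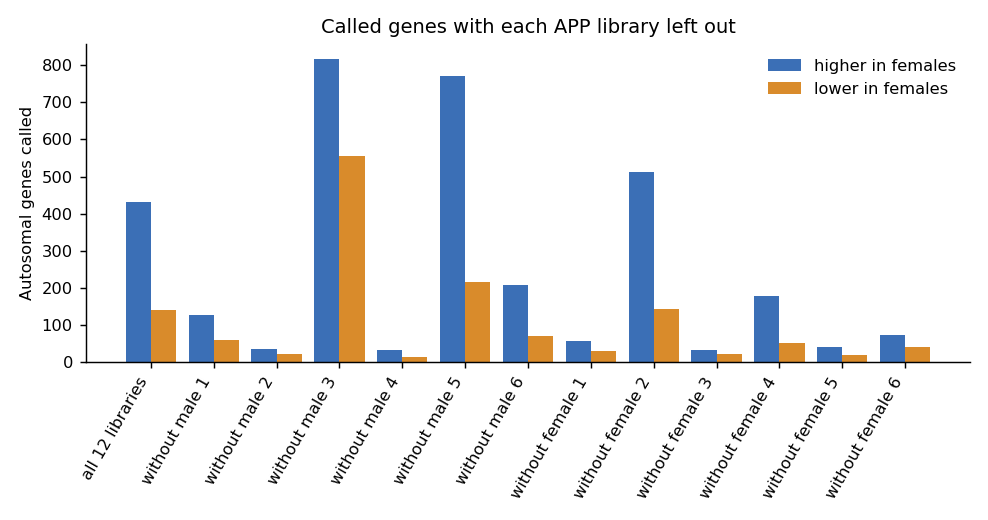
Number of autosomal genes called (y axis) with all 12 APP libraries and with each of them left out (x axis), blue bars for genes higher and orange bars for genes lower in females. The count runs from 43 without male 4 to 1373 without male 3, and higher calls outnumber lower ones in each setting.

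MHC class I genes were higher in females. Of 20 measured antigen presentation genes 9 were called higher and 0 lower (3.24% and 1.06% of all autosomal genes), and 19 of 20 lay above 0, with a median of 0.46 beside 0.05 for all genes. For 6 of them the sexes did not overlap. H2-Q4, a class Ib MHC gene (chr17:35379617-35384674, mm10), was at 592, 640 and 839 CPM in the lowest, median and highest female library and at 402, 451 and 512 CPM in the males. Every female library exceeded every male one, by a log2 difference of 0.58 (SE 0.09, limma adjusted p = 0.011). H2-T22, another class Ib gene, was at 134, 151 and 178 CPM in females and 84.6, 106 and 115 CPM in males (0.58, SE 0.09, adjusted p = 0.017). Psmb8 and Psmb9 encode catalytic subunits of the immunoproteasome, which cuts peptides for class I. Psmb8 was at 113, 134 and 159 CPM in females and 78.6, 94.6 and 102 CPM in males (0.55, SE 0.09, adjusted p = 0.017). Psmb9 was at 70.1, 77.8 and 93.3 CPM against 34.8, 49.1 and 57.2 CPM (0.78, SE 0.13, adjusted p = 0.02). None of these 4 genes overlapped between the sexes. The other called members were the peptide transporter genes Tap1 (0.73) and Tap2 (0.34), the class I transactivator Nlrc5 (0.85), H2-K1 (0.49) and H2-T23 (0.44). B2m, the light chain of class I, was at 1840, 2080 and 2380 CPM against 1040, 1550 and 1920 CPM and was not called (0.48, SE 0.15, adjusted p = 0.079). H2 genes resemble each other closely and may share reads, so the value of any 1 of them is uncertain.

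With single libraries left out, 3 (without female 5) to 9 (without male 3) antigen presentation genes stayed called higher, and 4 without female 1 or without female 3, 5 without male 2, and 6 without male 4 or without female 6. H2-Q4, H2-T22 and Psmb8 were called in all 12 leave-outs, Psmb9 in 9 of 12, with adjusted p = 0.052 in limma at most, without male 2. The median of the list was 0.43 in short-named and 0.38 in long-named libraries. Single members differed more, with B2m at 0.72 and 0.02 and Psmb9 at 0.98 and 0.39, and the difference between styles was called for 0 of the 20 in limma. The antigen presentation sum overlapped between the sexes, at 6650 to 10400 CPM in females and 4450 to 9500 CPM in males, with the highest male value in male 2.

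Interferon response genes went the same way. Of 31 measured, 12 were called higher and 0 lower, and 29 lay above 0, with a median of 0.57. Irf7, the transcription factor that amplifies the type I interferon response (chr7:141263183-141266499), was at 143, 222 and 259 CPM in females and 94.8, 113 and 156 CPM in males (log2 difference 0.76, SE 0.12, limma adjusted p = 0.017). The ranges overlapped because female 5 lay below the 2 long-named males, while within each style every female was above every male. Gbp7, a guanylate-binding GTPase that attacks intracellular pathogens, was at 149, 184 and 210 CPM against 104, 123 and 145 CPM (0.57, SE 0.1, adjusted p = 0.022), without overlap. Zbp1, a sensor of Z-form nucleic acid, was at 11.1, 20.2 and 26.2 CPM against 4.4, 6.96 and 15.3 CPM (1.11, SE 0.21, adjusted p = 0.025). Ifit3b, an antiviral tetratricopeptide gene, was at 43, 68.2 and 77.9 CPM against 23.6, 34.6 and 46.2 CPM (0.91, SE 0.18, adjusted p = 0.026). Zbp1 and Ifit3b overlapped between the sexes, and in both the 2 long-named males were the highest males. Oas2 (0.73), Ifit3 (0.86), Gbp3 (0.7), Gbp2 (0.57), Oasl2 (0.59), Ifit2 (0.57) and Usp18 (0.54) were among the other members called. Ifit3 and Ifit3b are near-identical copies and may share reads.

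Irf7 stayed called in all 12 leave-outs, Gbp7 and Zbp1 in 8 and Ifit3b in 7. Their highest limma adjusted p was 0.059 for Gbp7 and 0.063 for Zbp1, both without male 4, and 0.069 for Ifit3b without female 3. The number of interferon genes called higher fell to 1 without male 2, without male 4 or without female 3, to 2 without female 1, to 3 without female 6, to 5 without male 1, to 6 without female 5 and to 7 without female 4, and was 18 without male 3. The median was 0.66 in short-named and 0.3 in long-named libraries. With the neural marker mean as a covariate no interferon or antigen presentation gene was called, while the medians were 0.46 for the interferon and 0.56 for the antigen presentation list. Without the block for name style 5 interferon genes were called.

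A further 3 immune genes were among the 36 called in every leave-out. Tnfsf10, which encodes the death ligand TRAIL, was at 197, 208 and 238 CPM in females and 98.9, 117 and 164 CPM in males (0.84, SE 0.11, limma adjusted p = 0.0065). Cd274, which encodes the checkpoint ligand PD-L1, was at 60.2, 67.9 and 81.1 CPM against 33.9, 43.2 and 52.9 CPM (0.69, SE 0.1, adjusted p = 0.011). Serpina3g, an intracellular protease inhibitor, was at 15, 18.1 and 18.8 CPM against 6.87, 10.5 and 11.8 CPM (0.75, SE 0.11, adjusted p = 0.0085). In all 3 the sexes did not overlap.

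**Figure D2:**
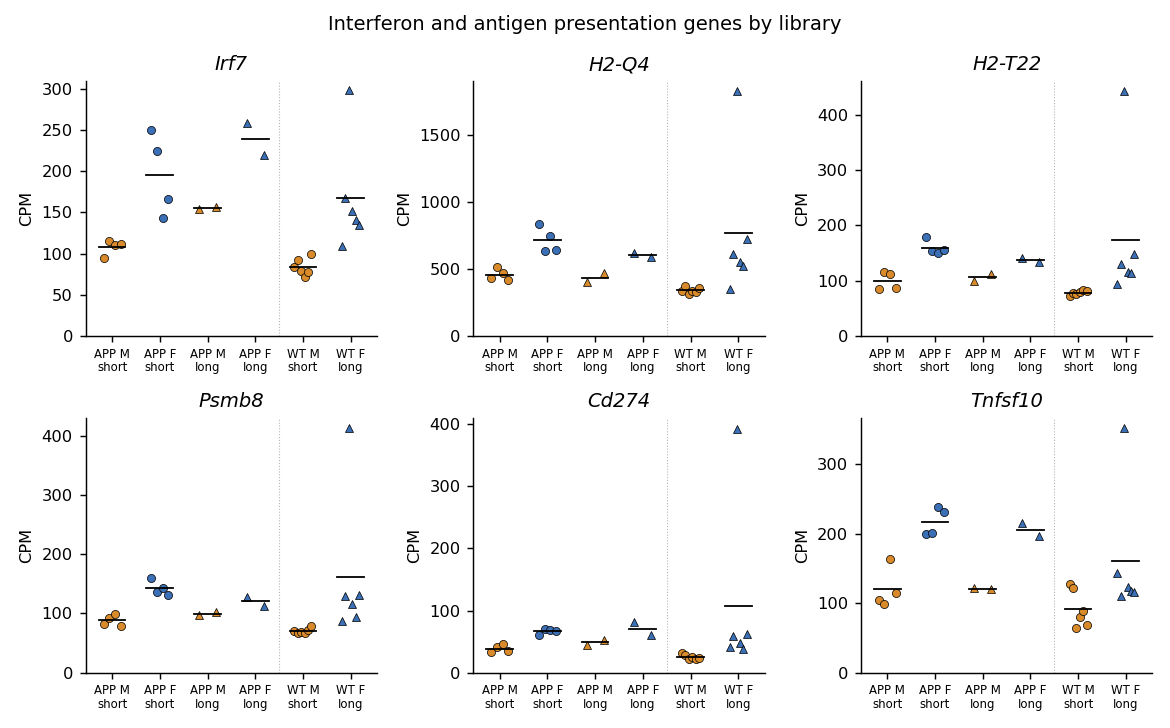
Level in CPM (y axis) of 6 interferon and antigen presentation genes in each library, by genotype, sex (orange male, blue female) and name style (circles short, triangles long), with the group mean as a line. In H2-Q4, H2-T22, Psmb8, Cd274 and Tnfsf10 every APP female lies above every APP male, and 1 WT female lies far above the other 5 in all 6 panels.

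The interferon-stimulated response element marks promoters that interferon factors bind, and was taken here as GAAA and GAAA with 2 bases between. It was searched on both strands in the 250 bases before the start listed first for each gene. It was present in 2.65% of the promoters of the 10296 autosomal genes that matched a RefSeq promoter, in 7.21% of 319 genes called higher and in 0.893% of 112 called lower. Among the interferon and antigen presentation genes called higher, 7 of 15 with a promoter held it (46.7%): Gbp2, Gbp3, Gbp7, H2-T22, H2-T23, Ifit3 and Ifit3b. The gamma-activated sequence, TTCNNNGAA, was in 3 of these 15 (20%) and in 6.01% of all. The share among members of the 2 lists that were not called was not computed. Whether these shares belong to the lists or to the calls was therefore not tested. Both motifs can overlap other motifs, and a match is a description of letters, not a binding site. Windows of 100 bases that hold the element are shown for 4 called genes, with the matches in capitals, from RefSeq on GRCm38.p6 (mm10). The H2-T22 window is chr17:36042879-36042978 (minus strand) and that of Gbp7 chr3:142530236-142530335 (plus). That of H2-T23 is chr17:36032771-36032870 (minus) and that of Ifit3b chr19:34607758-34607857 (plus). The Ifit3b window lies within the span of the gene (chr19:34607530-34613403), since the start listed first is inside it. Ifit3 has the same 100 bases as Ifit3b, and both count among the 7.
H2-T22: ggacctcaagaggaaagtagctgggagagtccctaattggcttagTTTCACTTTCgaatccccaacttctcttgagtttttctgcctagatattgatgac
Gbp7: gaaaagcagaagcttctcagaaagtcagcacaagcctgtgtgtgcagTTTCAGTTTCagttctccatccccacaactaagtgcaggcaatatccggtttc
H2-T23: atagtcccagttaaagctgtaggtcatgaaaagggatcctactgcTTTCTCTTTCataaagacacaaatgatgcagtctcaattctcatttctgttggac
Ifit3b: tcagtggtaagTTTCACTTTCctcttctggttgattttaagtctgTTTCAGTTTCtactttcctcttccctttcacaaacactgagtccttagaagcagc
In all 4 the capitals read as the reverse complement of the spelled motif, and the Ifit3b window holds it at 2 places. The estrogen response element, GGTCA and TGACC with 3 bases between, was in 0 of the 319 promoters of genes called higher and in 0 of the 112 called lower, beside 2 of all 10296.

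Chaperone genes were lower in females. Of 18 heat shock and chaperone genes 4 were called lower and 0 higher, and 2 lay above 0, with a median of -0.29. Hsp90aa1, the stress-inducible HSP90 (chr12:110691036-110696395), was at 106, 138 and 173 CPM in females and 175, 254 and 318 CPM in males, a log2 difference of -0.89 (SE 0.12, limma adjusted p = 0.0065) without overlap and with a call in all 12 leave-outs. Dnajb1, a co-chaperone of HSP70, was at 173, 208 and 250 CPM against 221, 296 and 326 CPM (-0.46, SE 0.08, adjusted p = 0.022). The 2 highest females of Dnajb1 lay within the male range. Bag3, a co-chaperone of selective autophagy, was at 87.5, 94 and 116 CPM against 106, 123 and 138 CPM (-0.33, SE 0.08, adjusted p = 0.042). Dnajb4 was at 41.1, 52.9 and 59.9 CPM against 53, 82.9 and 103 CPM (-0.6, SE 0.15, adjusted p = 0.045). The inducible HSP70 genes Hspa1a (1115 against 2095 CPM on average, adjusted p = 0.069) and Hspa1b (2211 against 4132 CPM, adjusted p = 0.099) were not called. Dnajb1 stayed called in 9 of 12 leave-outs, Bag3 in 3 and Dnajb4 in 1, and all 3 calls ended without male 2 or without male 4 (limma adjusted p = 0.056 at most for Dnajb1, 0.098 for Bag3 and 0.11 for Dnajb4). The list had 1 called lower without male 2, without male 4 or without female 1, 2 without male 1, without male 6 or without females 3 to 6 in turn, and 8 without male 5.

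In the unfolded protein response list, 3 of 19 were called lower and 2 higher, with a median of -0.09. Atf4, the transcription factor of the integrated stress response, was at 237, 256 and 284 CPM in females and 282, 329 and 344 CPM in males (-0.31, SE 0.05, limma adjusted p = 0.013). Only female 4 lay inside the male range, and Atf4 was called in all 12 leave-outs. Hspa5, the main chaperone of the endoplasmic reticulum, was at 670, 727 and 938 CPM against 896, 1120 and 1420 CPM (-0.6, SE 0.12, adjusted p = 0.026). Herpud1, which aids degradation of misfolded proteins there, was at 140, 154 and 162 CPM against 157, 224 and 262 CPM (-0.5, SE 0.1, adjusted p = 0.027). A single female of Hspa5 and 3 of Herpud1 lay inside the male range, and both calls ended without male 2, male 4, female 1, female 3, female 5 or female 6 (adjusted p = 0.069 at most in limma). The members called higher, Asns (asparagine synthetase, 0.54) and Atf5 (a transcription factor, 0.37), are known targets of Atf4. Without male 2, male 4 or females 1, 3, 5 or 6 the list kept 1 lower and 0 higher calls, without male 1 or female 4 it had 3 lower and 0 higher, and without male 3 it had 5 lower and 2 higher.

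Glucocorticoid-responsive genes held some of the largest differences. Of 21 measured, 4 were called lower (1.06% of all autosomal genes were) and 0 higher, and 3 lay above 0, with a median of -0.29. The median was -0.42 in short-named and -0.09 in long-named libraries, and 8 lay above 0 in the long-named ones. Hif3a, a hypoxia-inducible factor subunit that glucocorticoids induce, was at 1.2, 2.51 and 4.36 CPM in females and 4.1, 13.4 and 20.2 CPM in males (-1.76, SE 0.32, limma adjusted p = 0.022). Fkbp5, a co-chaperone that restrains the glucocorticoid receptor (chr17:28398753-28486149), was at 15.3, 20 and 23.9 CPM against 16.5, 63.6 and 81.6 CPM (-1.35, SE 0.32, adjusted p = 0.041). In Fkbp5 male 3 was at the female level and the other 5 males were at 46.2 CPM or above. Zbtb16, a zinc-finger transcription factor, was at 15, 18.4 and 37.9 CPM against 17.1, 47.8 and 149 CPM (-1.35, SE 0.34, adjusted p = 0.046). Sult1a1, a phenol sulfotransferase, was at 25.9, 30.4 and 59.4 CPM against 43.8, 76.8 and 112 CPM (-1.08, SE 0.2, adjusted p = 0.023). All 4 overlapped between the sexes. In short-named and long-named libraries Hif3a differed by -1.99 and -1.31, and Fkbp5 by -1.35 in both. Zbtb16 differed by -1.72 and -0.61, and Sult1a1 by -1.24 and -0.76. Hif3a remained called in 9 of 12 leave-outs, Sult1a1 in 8, Fkbp5 in 2 and Zbtb16 in 2, with adjusted p = 0.1 at most for the last pair, without male 4. No member was called without male 2, male 4 or female 5, 1 was without female 3, 2 were without male 1, male 6 or females 1, 4 or 6, and 6 without male 3. Nr3c1, the glucocorticoid receptor itself, was at 204, 228 and 235 CPM against 165, 202 and 215 CPM and was not called (0.2, SE 0.06, adjusted p = 0.094).

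Clock genes moved with name style as well as sex. Of 19 measured, 2 were called lower, both repressors of the clock. Per2 was at 10.8, 16.3 and 25.8 CPM in females and 14, 65.8 and 104 CPM in males (-1.46, SE 0.27, limma adjusted p = 0.025). The high values were in the 4 short-named males, at 52.2 to 104 CPM, and the 2 long-named males, at 14 and 14.5 CPM, lay among the females. The sex difference of Per2 differed between styles by -1.65 (adjusted p = 0.037). Cry1 was at 10.3, 12.7 and 15.2 CPM against 12.1, 20.4 and 25.8 CPM (-0.61, SE 0.11, adjusted p = 0.024) and was called in 8 of 12 leave-outs, as was Per2. Without male 4, female 3 or female 5 no clock gene was called, 1 was without male 2 or without female 6, and 4 without male 3; none was called without the block for name style. Ciart, another repressor, was at 22.6 to 29.1 CPM in short-named females and 63.2 to 112 CPM in short-named males but at 27 to 33.4 and 27 to 29.8 CPM in the long-named ones (-0.94, SE 0.25, adjusted p = 0.052). The time at which tissue was taken was not tested. With a clock score added as a covariate, 264 autosomal genes were called, 173 higher and 91 lower. The score was the mean centred log2 value of Dbp, Nr1d1, Nr1d2, Per3, Tef and Ciart. Npas2 and Bmal1 (Arntl) entered it with reversed sign where measured, and Per2 and Cry1 were not part of it. Clock genes are controlled through the E-box CACGTG, which was in 8.33% of all promoters and in 14.3% of the 112 of genes called lower. The one clock gene called lower with a RefSeq promoter, Cry1, held it in chr10:85185062-85185161 (minus strand).
Cry1: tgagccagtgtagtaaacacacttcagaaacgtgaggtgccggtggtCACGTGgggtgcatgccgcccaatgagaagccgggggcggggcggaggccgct

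Other large differences toward males were in a channel, a receptor and a chemokine gene. Kcna5, a voltage-gated potassium channel, was at 3.76, 6.07 and 13.2 CPM in females and 10.5, 18.8 and 26.4 CPM in males (-1.36, SE 0.24, limma adjusted p = 0.022). Gprc5a, a retinoic acid-induced orphan receptor, was at 8.86, 10.8 and 13.2 CPM against 14.5, 25.2 and 47.2 CPM (-1.12, SE 0.23, adjusted p = 0.029). Ccl2, the chemokine that recruits monocytes, was at 18.3, 25.9 and 31.5 CPM against 24.5, 53.9 and 101 CPM (-1.08, SE 0.27, adjusted p = 0.046). Gprc5a alone of these did not overlap, and in Ccl2 male 3 was the male within the female range. Lao1, an amino acid oxidase (-1.61, SE 0.31), and Cytl1, a secreted cytokine-like protein (-0.94, SE 0.22), were also among the 12 largest differences of this direction. Ccl2 was called in 1 of 12 leave-outs (that without male 3, at adjusted p = 0.0019 in limma), Cytl1 in 3, Gprc5a in 5, Lao1 in 6 and Kcna5 in 7, and each of these 5 was lost without male 2 or without male 4 (adjusted p = 0.11 at most).

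**Figure D3:**
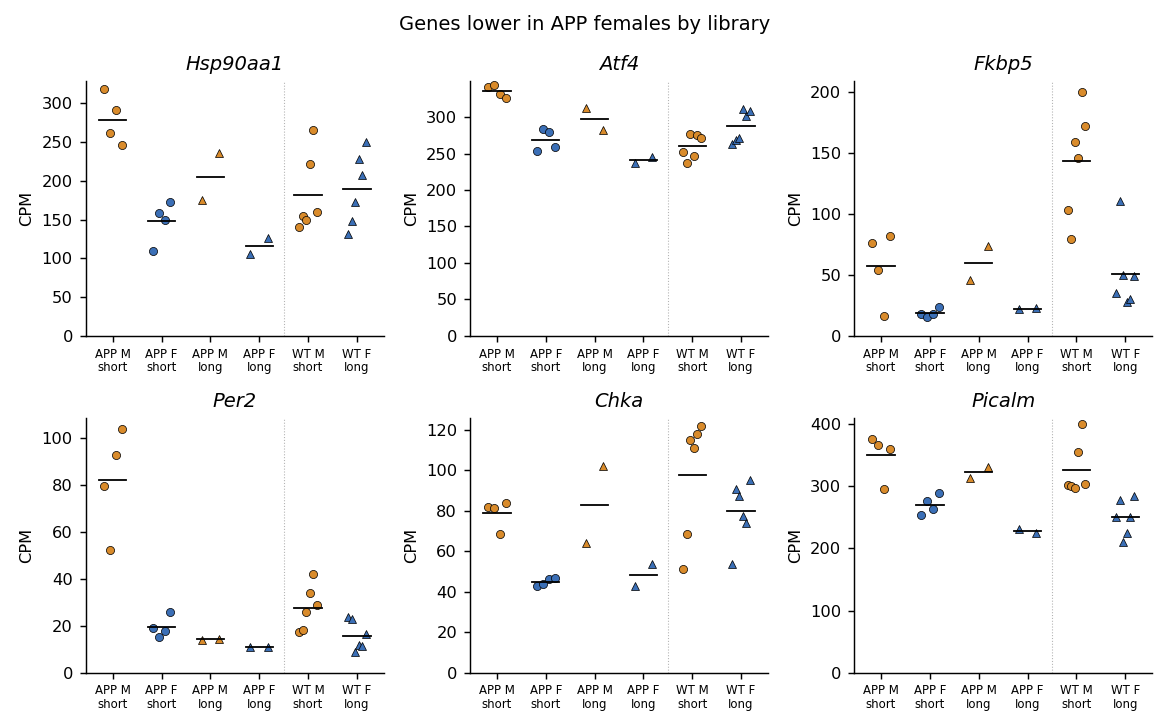
Level in CPM (y axis) of 6 genes lower in APP females in each library, by genotype, sex (orange male, blue female) and name style (circles short, triangles long), with the group mean as a line. Hsp90aa1, Chka and Picalm do not overlap between the APP sexes, Per2 is high in the short-named APP males only, and 1 short-named APP male lies at the female level of Fkbp5.

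The largest differences toward females were in neuronal and oligodendrocyte genes, and they came from the short-named libraries. Kif5a, a neuronal kinesin (chr10:127225695-127266348), was at 82.3, 607 and 1100 CPM in females and 8.53, 18 and 217 CPM in males (3.97, SE 0.83, limma adjusted p = 0.03). It was at 577 to 1100 CPM in short-named females, 8.53 to 20.7 CPM in short-named males, 82.3 and 229 CPM in long-named females and 58.1 and 217 CPM in long-named males. The difference was 5.81 in short-named and 0.29 in long-named libraries, and the styles differed by 5.52 (adjusted p = 0.0093). Mbp, myelin basic protein, was at 1210 to 2490 CPM in short-named females and 39.7 to 79.4 CPM in short-named males, but at 159 and 386 against 140 and 300 CPM in the long-named ones (3.17, SE 0.65, adjusted p = 0.029; styles differed by 4.35). The other 10 of the 12 largest were Camk2a (3.67), Kif5c (3.34), Ddn (3.27), Rims1 (3.25), Mobp (3.18), Bcas1 (3.13), Rph3a (2.98), Nrsn1 (2.85), Hpcal4 (2.82) and Adcy1 (2.81). These encode a synaptic kinase, a kinesin, a dendritic protein, 2 presynaptic scaffold or vesicle proteins, 2 proteins of myelinating cells, a vesicle membrane protein, a calcium sensor and an adenylyl cyclase. The style term was called in all 12, and none was called in WT, where the differences were -1.28 to -0.29. Each lost its call in 7 to 9 of the 12 leave-outs, always without male 1, male 2, male 4 or females 1, 3, 5 or 6, with adjusted p = 0.1 at most in limma.

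Across the lists, 6 of 15 neuron genes and 8 of 13 oligodendrocyte genes were called higher and 0 lower, with medians of 0.97 and 1.52. In short-named libraries the medians were 1.45 and 2.3, in long-named ones 0.06 and 0.27, and in WT -0.72 and -0.33. The summed neuron genes were at 1040 to 1790 CPM in short-named females and 230 to 291 CPM in short-named males, against 326 and 555 and 263 and 556 CPM in the long-named ones. In WT this sum was at 247 to 567 CPM in females and 291 to 874 CPM in males, so the short-named APP females were above every other library. The neuron list had no call without males 1, 2 or 4 or without females 1, 3, 4, 5 or 6. The oligodendrocyte list had 2 or 3 without the same libraries other than female 4, and 4 without female 4. Thy1, a neuronal surface glycoprotein, was at 4.27, 7.6 and 8.14 CPM against 1.27, 2.11 and 6.16 CPM (1.11, SE 0.27, adjusted p = 0.044 in limma). Cldn11 and Aspa were higher in both styles and were called in all 12 leave-outs. Cldn11, the claudin of myelin (chr3:31149920-31164326), was at 4.91, 11.8 and 17 CPM in females and 0.721, 1.41 and 4.78 CPM in males (2.17, SE 0.34, adjusted p = 0.013), without overlap. Aspa, which degrades N-acetylaspartate, was at 1.44, 3.19 and 4.38 CPM against 0.633, 1.06 and 1.74 CPM (0.9, SE 0.15, adjusted p = 0.018), with 1 female inside the male range. Cldn11 differed by 0.87 and Aspa by 0.76 in the long-named libraries. In bulk RNA, fewer cells of a type and less RNA per cell cannot be told apart.

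Astrocyte genes were called higher for 2 of 20, with a median of 0.83. Sox9, a glial transcription factor that also marks cartilage and testis, was at 12.4, 16.1 and 18 CPM in females and 3.22, 5.56 and 10.1 CPM in males (1.3, SE 0.22, limma adjusted p = 0.018). The sexes did not overlap, and it differed by 1.36 in short-named and 1.17 in long-named libraries. Gfap, the filament of reactive astrocytes, was at 25, 47.5 and 78.1 CPM against 6.01, 7.53 and 36.5 CPM (1.99, SE 0.38, adjusted p = 0.026), and the styles differed by 2.36 (adjusted p = 0.029). Gfap was called in 5 of 12 leave-outs and Sox9 in all 12. Among short-named libraries alone 14 of the 20 were called higher, with a median of 1.75, while the long-named median was -0.78. The list kept 1 call without male 2, male 4 or females 1, 3, 5 or 6, and had 4 without male 5 and 5 without female 2.

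Pericyte genes showed the same dependence on style. None of 16 was called in limma (12 had an unadjusted p under 0.05), all 16 lay above 0 (median 0.63), 12 were called higher among short-named libraries (6.33% of all genes were), and the difference between styles was called for 11. Rgs5, a G-protein regulator of pericytes, was at 71.9 to 110 CPM in short-named females and 26.2 to 44.6 CPM in short-named males, and at 65.1 and 66.7 against 70.6 and 78.8 CPM in long-named ones (0.81, SE 0.24, limma adjusted p = 0.077). Slc6a20a, an amino acid transporter (1.1, SE 0.34, adjusted p = 0.082), and Abcc9, a potassium channel subunit (1.12, SE 0.36, adjusted p = 0.089), were likewise lowest in the short-named males. All 3 lay below 0 in the long-named libraries, at -0.18, -0.29 and -0.41.

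**Figure D4:**
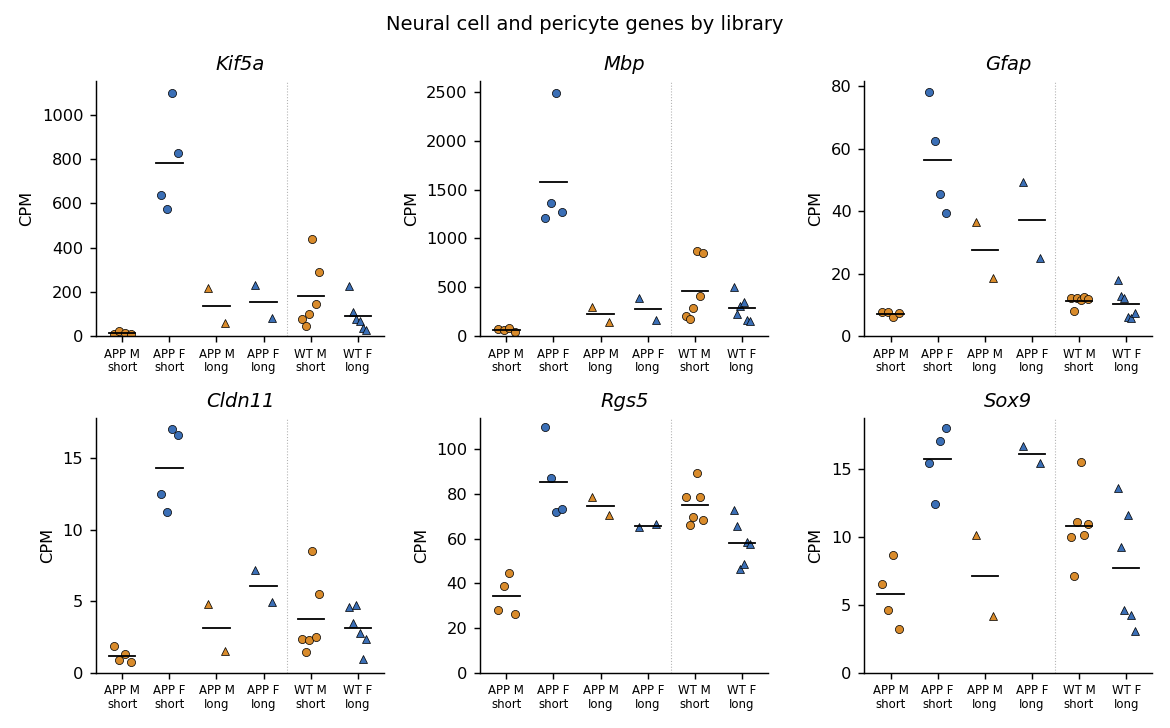
Level in CPM (y axis) of 6 neural cell and pericyte genes in each library, by genotype, sex (orange male, blue female) and name style (circles short, triangles long), with the group mean as a line. Kif5a, Mbp, Gfap and Rgs5 are higher in females among short-named APP libraries, where the sexes do not overlap; among long-named ones the first 3 overlap and Rgs5 is lower in females, while Cldn11 and Sox9 separate them in both.

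The difference between styles was tested for every gene. It was called for 312 autosomal genes (2.35%), with 261 more positive (1.97%) and 51 more negative (0.384%) in short-named libraries. Leaving out a long-named library leaves 1 of that sex, whose spread is then assumed to be like the others', and the count was 0 without female 2, 11 without male 5, 184 without female 1 and 322 without male 6. With a short-named library left out it was 635 without female 3, 118 without female 5, 137 without male 4, 152 without male 2 and 175 without female 6. Camkv (3.85), Elavl3 (3.22), Ncald (2.76) and Slc6a13 (2.57) led, each with limma adjusted p = 0.0079; the first 3 are neuronal genes and Slc6a13 is a GABA transporter. Sik1, a salt-inducible kinase, went the other way (-1.79, adjusted p = 0.0079), at 355 to 423 CPM in short-named females and 500 to 704 CPM in short-named males against 893 and 1020 and 398 and 423 CPM in long-named ones. Of the 430 genes called higher 71 had this term called, and of the 141 called lower 1. Long-named libraries tested alone had 4 calls (0.0301%), 3 higher (0.0226%) and 1 lower (0.00753%), in a design of 2 against 2.

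Genes called in the 8 short-named libraries, 7.89% of all, could be looked up in the 4 long-named ones, which share no library with them. Of 840 called higher (6.33%) 396 lay above 0 in the long-named libraries (47.1%, beside 43.2% of all autosomal genes). Of 207 called lower (1.56%) 127 lay below 0 (61.4%, beside 56.8% of all). In WT 294 of the 840 (35%, beside 53.9% of all) lay above 0 and 128 of the 207 (61.8%, beside 46.1% of all) below 0.

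With the neural marker mean as a covariate, 8 autosomal genes were called in place of 571. Bst1, an enzyme of cyclic ADP-ribose (1.5), the chemokine Cxcl1 (1.15), Zfp46 (1.08), Serpina3g (0.97) and Ptgfrn (0.65) were higher in females, and Filip1l (-0.98) and Oser1 (-0.77) were among the lower ones. Serpina3g and Oser1 were also among the 36, and the others were named after their values were seen. All 430 genes called higher remained above 0 (median 0.39) and all 141 called lower remained below 0 (median -0.35) with this covariate. They were chosen by their difference in the same libraries, so keeping the sign was favoured in advance and is a description only. The covariate was itself higher in short-named females than in short-named males, so part of what sex and it share was taken up by it.

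Most fibroblast and all choroid plexus genes measured also lay above 0. Of 16 perivascular fibroblast genes 2 were called higher and 14 lay above 0, with a median of 0.61, 0.5 in short-named and 0.48 in long-named libraries. The sum of this list was not higher in females, at 905, 963 and 1190 CPM in the lowest, median and highest library. In males it was at 759, 1040 and 1410 CPM. Ptgds, a prostaglandin D synthase of leptomeninges, was at 57.6, 88.8 and 133 CPM in females and 10.1, 24.7 and 48.6 CPM in males (1.94, SE 0.37, limma adjusted p = 0.025), without overlap. Apod, a lipid carrier, was at 68.5, 88.9 and 92.4 CPM against 50.8, 63 and 80.4 CPM (0.4, SE 0.09, adjusted p = 0.036). None of 13 choroid plexus and ependyma genes was called in limma (11 had an unadjusted p under 0.05), while all 13 lay above 0 (median 1.14). Their sum was at 2310, 5730 and 12700 CPM in females and 847, 2430 and 5560 CPM in males. Kcnj13, a potassium channel of choroid plexus (1.33, SE 0.36, adjusted p = 0.057), and Enpp2, a phospholipase of choroid plexus and oligodendrocytes (1.37, SE 0.41, adjusted p = 0.078), were the members nearest a call. Ptgds was lost without male 2, male 4 or females 3, 5 or 6 (adjusted p = 0.069 at most in limma), and Apod in 8 of 12 leave-outs.

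Microglial genes were not called in either list. None of 14 homeostatic genes was called in limma (4 had an unadjusted p under 0.05), none lay above 0 and the median was -0.52, and without male 3, the male with few microglial reads, 12 of the 14 were called lower (4.19% of all autosomal genes were) with a median of -0.83; that male stands apart in these same genes, so this is a description. Tmem119, a surface marker of microglia, was at 132, 166 and 217 CPM in females and 128, 368 and 516 CPM in males (-0.94, SE 0.28, limma adjusted p = 0.078, and adjusted p = 0.0036 without male 3, with 0.16 at most over the leave-outs). Male 3 had the 128 CPM and the other 5 males 307 CPM or more, above every female. Mertk, a phagocytic receptor, was at 140, 156 and 176 CPM against 152, 216 and 291 CPM (-0.46, SE 0.13, adjusted p = 0.07). Of 27 genes that microglia induce around plaques, 0 were called in limma in either direction (2 had an unadjusted p under 0.05) and the median was 0.08. The 2 with the smallest p were B2m, given above, and Fabp5, a fatty acid carrier at 2.32 against 1.32 CPM in the median library (0.45, SE 0.18, adjusted p = 0.16). Their sum was at 8880 to 14100 CPM in females and 6880 to 14600 CPM in males.

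Barrier and amyloid genes held few calls. Of 23 barrier transporters 2 were called higher (3.24% of all genes were) and 0 lower, with a median of 0.07. Slc22a8, the organic anion exporter OAT3, was at 604, 721 and 756 CPM in females and 406, 529 and 690 CPM in males (0.42, SE 0.1, limma adjusted p = 0.041). Slc40a1, the iron exporter ferroportin, was at 284, 324 and 358 CPM against 210, 237 and 299 CPM (0.39, SE 0.1, adjusted p = 0.046). Both overlapped between the sexes, median centring left neither called, and they were called in 4 and 3 of 12 leave-outs, neither of them without males 1, 2 or 4 or without females 1, 3, 4, 5 or 6 (limma adjusted p = 0.11 at most). Of 26 genes of amyloid production, uptake and clearance 1 was called in each direction, with a median of 0.02. Picalm, a clathrin adaptor in amyloid transcytosis and a risk gene of Alzheimer's disease (chr7:90130192-90209447), was at 225, 259 and 289 CPM against 296, 346 and 377 CPM (-0.41, SE 0.07, adjusted p = 0.017), without overlap and with a call in all 12 leave-outs. Sorl1, a sorting receptor of the amyloid precursor, was at 5.08, 9.79 and 15.3 CPM against 2.74, 4.02 and 9.57 CPM (0.83, SE 0.21, adjusted p = 0.044) and was called in 3 of 12 leave-outs. App itself averaged 2606 and 2238 CPM and was not called (0.22, adjusted p = 0.18).

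Among 16 autosomal sex steroid receptors, cofactors and enzymes, 0 were called in limma and 1 had an unadjusted p under 0.05, with a median of 0.02. Esr1, estrogen receptor alpha, was at 2.15, 3.69 and 6.1 CPM in females and 2.71, 3.56 and 4.31 CPM in males (0.07, SE 0.14, adjusted p = 0.8 in limma). Gper1, the membrane estrogen receptor, was at 30.3, 41.3 and 50.7 CPM against 36.9, 45.3 and 56.1 CPM (-0.13, SE 0.13, adjusted p = 0.58 in limma). Both receptors overlapped between the sexes.

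Of the 36 genes, Mmp15 had the smallest p. This membrane-type matrix metalloproteinase (chr8:95352296-95374293) was at 53.6, 64.8 and 80.9 CPM in females and 31.6, 35.4 and 46.2 CPM in males (0.79, SE 0.1, limma adjusted p = 0.0034). Fez1, an axonal kinesin adaptor, was at 13.3, 20.9 and 23.5 CPM against 7.15, 8.54 and 13.7 CPM (0.97, SE 0.13, adjusted p = 0.0065). Chka, choline kinase alpha, which starts phosphatidylcholine synthesis, was at 42.7, 45 and 53.6 CPM against 64, 81.8 and 102 CPM (-0.78, SE 0.1, adjusted p = 0.0065). Mmp15 and Chka did not overlap between the sexes, and Fez1 did by 1 female. Slc20a1, a sodium-phosphate transporter, was at 60.9, 74.8 and 84.7 CPM against 96.8, 114 and 127 CPM (-0.59, SE 0.08, adjusted p = 0.0065). Tgfb2, the growth factor TGF-beta 2, was at 141, 172 and 215 CPM against 79.2, 106 and 133 CPM (0.71, SE 0.11, adjusted p = 0.011). H1f0, a linker histone of resting cells, was at 114, 133 and 161 CPM against 76.5, 84 and 94.6 CPM (0.65, SE 0.09, adjusted p = 0.0068). These 3 did not overlap either.

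Others of the 36 follow, with 1 numbered gene model not named. Higher in females were Tspyl4 (0.9), Bok, a BCL2 family member (0.63), Nat8f4 (0.6), Tril, a toll-like receptor accessory protein (0.48), Zkscan8 (0.48), Apbb1, an adaptor of the amyloid precursor (0.4), Tcta (0.39), Thra, thyroid hormone receptor alpha (0.39), Rhobtb1 (0.36) and Wars1, the interferon-inducible tryptophanyl-tRNA synthetase (0.35). Thra was at 160, 172 and 183 CPM in females and 113, 129 and 154 CPM in males, without overlap. Lower in females were Cttnbp2nl (-0.75), Oser1 (-0.56), Ehd4, an endocytic ATPase (-0.53), Sorbs3, the focal adhesion protein vinexin (-0.44), Rnf169 (-0.36) and Phf23 (-0.32). Of these, Oser1, Sorbs3 and Rnf169 had no overlap between the sexes.

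The same contrast in WT asked which differences the transgenes are not needed for, though name style is part of it there. It called 2060 autosomal genes (15.5%), 1246 higher (9.39%) and 814 lower (6.13%) in females. Of the 430 genes higher in APP females 73 were called higher and 10 lower in WT, and of the 141 lower ones 25 were called lower and 8 higher. By sign, 231 of the 430 lay above 0 in WT (53.7%, beside 53.9% of all autosomal genes). Below 0 lay 76 of the 141 (53.9%, beside 46.1% of all). Interferon and antigen presentation genes were higher in WT females too, with 23 of 31 and 13 of 20 called higher and medians of 0.65 and 1.01. WT female 3 stood apart, with an interferon sum of 6590 CPM against 2920 CPM in the next WT library, and without it 21 and 15 were called and the medians were 0.51 and 0.63. Irf7 was at 109 to 298 CPM in WT females and 71.3 to 99 CPM in WT males (0.92, SE 0.18, limma adjusted p = 0.0057). Fkbp5 (-1.59, adjusted p = 0.0044), Hif3a (-1.61), Sult1a1 (-0.81), Zbtb16 (-2.94), Cry1 (-0.75) and Picalm (-0.38) were called lower in WT females as in APP females. Their lists were mixed in WT. Of 21 glucocorticoid genes 6 were called higher and 6 lower (median 0.09), and of 19 clock genes 6 higher and 3 lower (median -0.1). Ciart was called higher in WT females (0.68, limma adjusted p = 0.0056). Neural genes had the sign opposite to that in short-named APP libraries, with 8 of 20 astrocyte genes and 4 of 15 neuron genes called lower in WT females. In addition, 1 neuron gene was called higher. Astrocyte, neuron and oligodendrocyte medians were -0.63, -0.72 and -0.33 in WT and 1.75, 1.45 and 2.3 in short-named APP libraries. Long-named APP libraries had -0.78, 0.06 and 0.27, so the astrocyte median there had the sign of WT.

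The difference of the 2 contrasts was tested with all 24 libraries. It was called for 1107 autosomal genes (8.34%), 669 more positive (5.04%) and 438 more negative (3.3%) in APP. Of the 7 chaperone and unfolded protein response genes called lower in APP females, none of them called lower in WT, 5 differed in this test: Hsp90aa1 by -0.93 (limma adjusted p = 0.025), Dnajb1 by -0.62 (adjusted p = 0.016), Bag3 by -0.76 (adjusted p = 0.0039), Atf4 by -0.45 (adjusted p = 0.0035) and Herpud1 by -0.57 (adjusted p = 0.019). Hspa5 (-0.51, limma adjusted p = 0.063) and Dnajb4 (-0.71, adjusted p = 0.088) were not called in it. These 7 genes were chosen as called lower in the same APP libraries that enter this test. A negative value was thus favoured in advance, and their count is a description only. In WT Hsp90aa1 was at 131 to 250 CPM in females and 140 to 265 CPM in males, and Bag3 was called higher in WT females (0.48, adjusted p = 0.0097). Mmp15 differed by 1.12 (adjusted p = 0.0097), Sox9 by 1.83 (adjusted p = 0.012), Ccl2 by -1.55 (adjusted p = 0.018) and Slc20a1 by -0.66 (adjusted p = 0.0047). Irf7 (-0.19), H2-Q4 (-0.39), Picalm (-0.05) and Fkbp5 (0.24) had no call in this test, which does not show equal differences. Kif5a differed by 3.95 (adjusted p = 0.0055), and the part of name style in these values was not tested, since the WT contrast carries it.

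**Figure D5:**
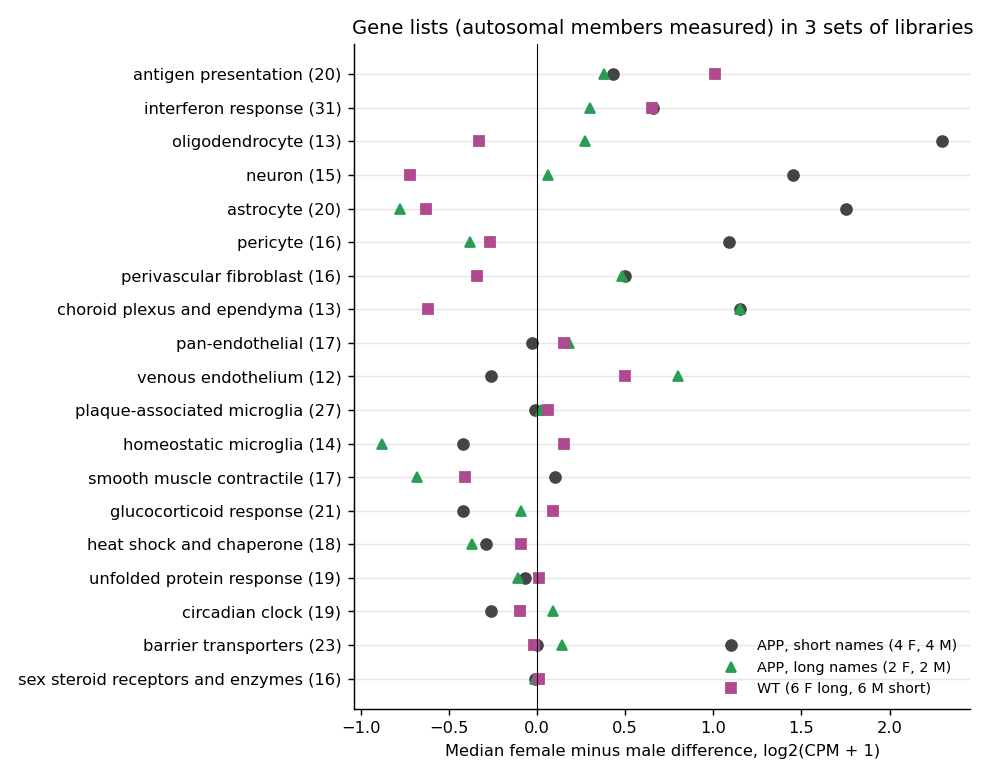
Median female minus male difference on the log2(CPM + 1) scale (x axis) of the measured autosomal members of 19 gene lists (y axis, number of members in brackets), for short-named APP (circles), long-named APP (triangles) and WT libraries (squares). Interferon and antigen presentation lists lie above 0 in all 3 sets, whereas oligodendrocyte, neuron, astrocyte and pericyte lists lie at 1.09 to 2.3 in the short-named APP set and at -0.78 to 0.27 in the long-named one.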

How the data were processed

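Values are CPM (read counts scaled to 1000000 reads per library), deposited by the authors in 1 table; the unit was read from the column names and the column sums, which were 99.33% to 99.45% of the full scale. Libraries used a poly(A) TruSeq kit with 200 ng of RNA on a NextSeq 2000, per the labels' protocols, and build mm10, as the submitters' processing notes give it. What aligned and counted the reads, with which annotation and strand, is not stated in these sources, so overlapping and antisense genes may share reads. Of 15346 rows, 1598 without values and 10 repeated rows of 2 symbols were left out. All values below 10000 reads were whole multiples of a step within 0.01 reads, which gave the library totals; a separate test of whole reads did not hold for most columns, so these totals and the floors from them are estimates.

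The 12 APP libraries were fitted with limma 3.58.1 (R 4.3.3) on log2(CPM + 1), with a mean-dependent prior, name style as a block and sex. P-values were adjusted (Benjamini-Hochberg) over all 13738 genes, and autosomal genes under 0.05 were called. With 6 animals in each group, p-values reflect variation among animals. Further fits were the interaction of sex and style, WT alone, and sex by genotype with 6 group means. Named genes have a mean of at least 1 CPM: the 12 largest differences each way, up to 4 members with the smallest p per list described, 5 genes of the style interaction, and receptors; others were chosen after their values were seen, as stated there. The members and the 39 lists (653 autosomal genes measured) were chosen with earlier results of these data known. Positions came from RefSeq on GRCm38.p6, for 13190 genes. Scripts were tested on simulated data. Alternatives covered scaling, pseudocount, filters, threshold, covariates, style, replicate block and each library left out; the list counts without WT female 3 and adjustment over autosomes alone were added after seeing the data. A few genes that the rule selects are not reported here.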

Additional observations from a re-analysis of the deposited data

Results flagged for a closer look

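In 18 of 190 groups of 6 APP libraries tested, 1 library stood apart from the other 5. A rate of about 1 in 20 by chance would need independent genes and uniform groups. These genes vary together and each group mixes 2 name styles, so the count was not set against chance. APP male 5 was the highest male in 12 neural genes, at 217 CPM in Kif5a (the other males at 8.53 to 58.1), 61.2 in Camk2a, 27.3 in Kif5c, 21.8 in Ddn, 8.05 in Rims1, 23.7 in Bcas1, 14.7 in Rph3a, 9.7 in Nrsn1, 12.3 in Hpcal4, 10.2 in Adcy1, 4.78 in Cldn11 and 2.03 CPM in Ermn. APP female 6 was the highest female in Zbtb16 (37.9 CPM) and Aldh1l1 (14.8 CPM). APP female 2 was the highest female in Chka (53.6 CPM) and Cttnbp2nl (296 CPM) and the lowest in Apbb1 (47.2 CPM). APP male 3 was the highest male in Tnfsf10 (164 CPM).

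Of the 95 named genes, 5 were chosen by the test of sex by name style itself, so a share of them called in it is partly set by that choice. The sex difference differed between short-named and long-named APP libraries (limma, short minus long, log2) for 25 of the 95, beside 2.35% of all autosomal genes. It was larger in short-named libraries for the neuronal genes Kif5a (5.52), Camk2a (5.24), Kif5c (4.58), Ddn (4.79), Rims1 (4.44), Rph3a (4.47), Nrsn1 (4.31), Hpcal4 (3.85), Adcy1 (4.28), Camkv (3.85), Elavl3 (3.22), Ncald (2.76) and Thy1 (1.71). The same held for the oligodendrocyte genes Mobp (4.14), Mbp (4.35), Bcas1 (4.2) and Ermn (2.32), for Gfap of astrocytes (2.36), for Rgs5 (1.48), Slc6a20a (2.09) and Abcc9 (2.3) of pericytes, and for Slc6a13 (2.57). Per2 (-1.65), Ciart (-1.52) and Sik1 (-1.79) went the other way.

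The sex difference also differed between APP and WT (APP minus WT, log2) for the genes below, with name style part of the WT contrast. They were named by their values in the same APP libraries, which favoured a difference in advance. Neuronal and oligodendrocyte genes were more positive in APP: Kif5a 3.95, Camk2a 3.68, Kif5c 3.58, Ddn 3.21, Rims1 3.25, Mobp 2.78, Mbp 2.99, Bcas1 2.87, Rph3a 3.52, Nrsn1 3.13, Hpcal4 3.1, Adcy1 2.98, Cldn11 1.97, Aspa 1.21, Ermn 2.07, Elavl3 1.93 and Ncald 1.82. So were glial, mural, fibroblast and choroid plexus genes, with Sox9 at 1.83, Gfap 1.81, Rgs5 0.94, Abcc9 1.03, Ptgds 1.98 and Kcnj13 1.88. Of the stress genes, 5 were more negative in APP, with Hsp90aa1 at -0.93, Dnajb1 -0.62, Bag3 -0.76, Atf4 -0.45 and Herpud1 -0.57, while Hspa5 (-0.51, limma adjusted p = 0.063) and Dnajb4 (-0.71, adjusted p = 0.088) were not called. Zbtb16 was at 1.78, being lower in females of both genotypes. Kcna5 (-1.08), Ccl2 (-1.55) and Ciart (-1.36) were more negative in APP. Of the genes called in every leave-out, Mmp15 was at 1.12, Fez1 0.72, Tcta 0.48, Tril 0.8, Zkscan8 0.81, Tspyl4 0.84, Nat8f4 0.47, Apbb1 0.53 and Bok 1.04, and Slc20a1 at -0.66, Cttnbp2nl -1.09 and Oser1 -0.62.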

How the results depend on the processing

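The count of 571 called genes was 290 without the name style block, 1047 in short-named and 4 in long-named libraries, 1269 with all 24 libraries in the fit, 1386 at an adjusted p under 0.1, 10 under 0.01, 8 with the neural marker covariate and 264 with the clock covariate, and 43 to 1373 with 1 library left out. The count for sex by name style was 0 to 635 with 1 library left out, beside 312. The WT count stayed within 1.5 times under each alternative run, each library left out included. For sex by genotype the count was 941 to 1177 beside 1107. Only the pseudocount, TMM scaling and APP not split by name style were varied there. No library was left out of that test, so its dependence on single libraries was not tested. Fewer libraries were fitted in the short-only, long-only and leave-out settings; for the other settings the cause was not tested. Long-named libraries alone turned the sign of Rph3a (-0.004), Nrsn1 (-0.021), Adcy1 (-0.046), Thy1 (-0.033), Rgs5 (-0.176), Slc6a20a (-0.29), Abcc9 (-0.41), Fabp5 (-0.024), Ciart (0.08), Camkv (-0.669), Elavl3 (-0.268), Ncald (-0.101) and Slc6a13 (-0.909). Sik1 was -0.029 with TMM scaling, -0.033 with median centring, -0.576 in short-named libraries and -0.152 to 0.144 with 1 library left out. The neural covariate turned Camkv (-0.087) and Slc6a13 (-0.522), and short-named libraries turned Esr1 (-0.077). Replicate numbers did not pair the samples: same-numbered females and males correlated at 0.01 to 0.07 from group means and at -0.15 to 0.3 from group and style means, and 0 of 6 males correlated best with their own number. A replicate block gave 856 calls with name style and 485 without, and 1474 in WT. Count tests on recovered reads were not run. Depth limits only genes near 0.0395 to 0.0533 CPM.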

Other observations

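The endothelial lists held few calls, beside 4.3% of all autosomal genes called. The genes named here were chosen after their values were seen, as the called members of their lists. In the pan-endothelial list 1 of 17 was called, Kdr, the main VEGF receptor, at a mean of 1008 CPM in females and 745 CPM in males (log2 difference 0.44). Of 11 capillary genes only Cxcl12, a chemokine that retains leukocytes, was called (2481 against 1533 CPM, 0.7, no overlap between the sexes). Among 26 VEGF, Notch and BMP genes Nrp2, a co-receptor of VEGF, was called beside Kdr (0.54). None of 15 arterial, 12 venous, 16 junction or 16 basement membrane genes was called in limma, while 5, 3, 4 and 4 of them had an unadjusted p under 0.05. In the Wnt list of 21, Notum (0.3) and Tnfrsf19 (0.44) were called higher and Fzd4, the Norrin receptor, lower (-0.41); with TMM scaling Notum and Tnfrsf19 were not called. Kdr was called in 6 of 12 leave-outs, Cxcl12 in 7, Nrp2 in 8, Fzd4 in 3 and Notum and Tnfrsf19 in 1 each.

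Metabolic and stress lists had single calls as well. Of all autosomal genes 4.3% were called, and 1 call in a list of 18 to 22 genes is near that share. Hmox1, which degrades haem, was lower in females (-0.79, 41.6 against 76 CPM) and Gstm2, a glutathione transferase, higher (0.57), out of 20 NRF2 genes. Pcna, the sliding clamp of replication, was lower (-0.47, no overlap) and Mcm4, a helicase subunit, higher (0.25), out of 14 cell cycle genes. Insig1, a brake on sterol synthesis, was the 1 call among 18 cholesterol genes (-0.43), and Ppara, a regulator of fatty acid oxidation, the 1 among 20 fatty acid genes (0.4). Of 22 nuclear genes of the respiratory chain Cox4i1 was called (0.28), and 21 lay above 0 with a median of 0.14, beside 61.1% of all autosomal genes above 0. This moved with name style. In short-named libraries all 22 lay above 0 (median 0.26, beside 66.5% of all genes). In long-named ones 10 did (median -0.04, beside 43.2% of all). F5, coagulation factor V, was the 1 call among 20 complement and coagulation genes (0.82). Each was called in 2 to 7 of the 12 leave-outs. None of 22 hypoxia and glycolysis or 23 immediate early genes was called in limma, and 2 and 3 had an unadjusted p under 0.05.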
